A study of Homo sapiens with 11 samples.

Results

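The 6 genes of autonomic and prostaglandin signalling described in heart organoids and a flat culture are the receptor genes *CHRM2*, *ADRB1* and *PTGER3*, the G protein alpha subunit genes *GNAO1* and *GNA14*, and *RGS6*, which encodes a regulator of G protein signalling. They are 6 of the 36601 genes in the deposited matrices and were chosen by symbol with their levels in these groups in view, so their values are given as a description. The cells came from H9, a human embryonic stem cell line, differentiated towards heart muscle and collected on day 42.5. The groups were cardioids, which are self-organised heart organoids, with PD173074, an inhibitor of FGF receptors (3 libraries); cardioids without PD173074 (5 libraries); and a 2D culture (3 libraries). All groups share the cell line and the day, and the labels give no start or length of the PD173074 treatment.

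The libraries of a group shared at least 99.3% of their cell barcodes, against at most 0.737% between groups, so they were taken as repeat runs of 1 set of droplets. Each group is therefore 1 sample, and differences between groups were described without a test. Run totals were 36127841 to 37765195 UMIs with PD173074, 12266166 to 24495291 without it and 43908067 to 46304366 in 2D culture. After filtering, 4597 cells with PD173074, 3534 without it and 8183 of the 2D culture remained. By fixed markers, 3391 of the cells with PD173074 were cardiomyocyte-like, as were 3146 of those without it and 7237 of the 2D culture. All 12 cardiomyocyte markers were detected in these cells in each group, with a summed level of 27350 CPM (UMIs of a gene scaled to the same library size) with PD173074, 20360 without it and 16970 in 2D culture.

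In the heart, parasympathetic nerves release acetylcholine, which acts on the M2 muscarinic receptor encoded by *CHRM2*. That receptor activates G proteins of the Gi and Go kind, and the freed beta-gamma subunits open the potassium channels encoded by *KCNJ3* and *KCNJ5*, which slows the pacemaker. *GNAO1* encodes the alpha subunit of Go, and RGS6, bound to GNB5, ends the signal by speeding GTP hydrolysis on Gi and Go alpha subunits. Sympathetic noradrenaline acts on the beta-1 adrenergic receptor encoded by *ADRB1*, which couples to Gs and raises cAMP. *GNA14* encodes an alpha subunit of the Gq family, and *PTGER3* encodes the EP3 receptor for prostaglandin E2, which couples mainly to Gi.

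In the GENCODE annotation of GRCh38, *CHRM2* (ENSG00000181072) lies at chr7:136868669-137020255 on the plus strand and *RGS6* (ENSG00000182732) at chr14:71932439-72566529 on the plus strand. *GNAO1* (ENSG00000087258) lies at chr16:56191347-56357457 on the plus strand, *GNA14* (ENSG00000156049) at chr9:77423079-77648307 on the minus strand and *PTGER3* (ENSG00000050628) at chr1:70852353-71047808 on the minus strand. *ADRB1* (ENSG00000043591) is a gene of 1 exon at chr10:114044056-114046908 on the plus strand. The spans run from 2.853 kb for *ADRB1* to 634.1 kb for *RGS6*. The sources used here leave unstated whether reads in introns were counted, and such reads could add to the counts of the 5 long genes. The antisense gene AC009264.1 overlaps *CHRM2* and had 52.5 CPM with PD173074, 42.1 without it and 20.6 in 2D culture. *GNA14-AS1*, which overlaps *GNA14* on the other strand, had 0.988 CPM with PD173074, 0.257 without it and 0.208 in 2D culture. How strand was used in counting such pairs is not stated in the sources used here.

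*GNAO1*, *GNA14* and *RGS6* were the 3 genes called higher, beyond 2-fold, with PD173074 than without it in cardiomyocyte-like cells, so the 250 bases before the most upstream start of each are shown 5′ to 3′ from RefSeq on GRCh38.p14. They lie at chr16:56191239-56191488 on the plus strand for *GNAO1*, chr9:77648323-77648572 on the minus strand for *GNA14* and chr14:71931921-71932170 on the plus strand for *RGS6*. Capitals mark a motif match, and lower case marks all other bases.
GNAO1: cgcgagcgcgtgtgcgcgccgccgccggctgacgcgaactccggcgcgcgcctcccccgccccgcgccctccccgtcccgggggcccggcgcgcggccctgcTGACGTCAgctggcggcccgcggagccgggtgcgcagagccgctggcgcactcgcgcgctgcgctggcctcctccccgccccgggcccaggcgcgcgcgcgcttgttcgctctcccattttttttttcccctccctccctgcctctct
GNA14: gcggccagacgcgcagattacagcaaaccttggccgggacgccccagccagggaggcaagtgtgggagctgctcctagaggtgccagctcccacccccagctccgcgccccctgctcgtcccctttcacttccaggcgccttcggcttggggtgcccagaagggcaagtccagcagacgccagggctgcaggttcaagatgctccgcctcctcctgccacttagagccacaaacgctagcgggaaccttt
RGS6: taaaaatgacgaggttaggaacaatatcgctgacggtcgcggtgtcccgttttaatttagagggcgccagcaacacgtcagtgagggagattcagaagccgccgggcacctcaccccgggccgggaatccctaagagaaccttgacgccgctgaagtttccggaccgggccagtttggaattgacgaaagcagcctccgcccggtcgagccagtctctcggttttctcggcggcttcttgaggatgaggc
The search covered both strands of each window. The letters searched were TGACGTCA for the cAMP response element and AGGTCA for nuclear receptors such as COUP-TF. They were AGGTGT for T-box factors and TATAAA for the TATA box. The letters for factors of the GATA family were AGATAA, and those for homeodomain factors were TAATTA. *GNAO1* held TGACGTCA once, 148 bases before the RefSeq start, in letters that read the same on both strands and that 1.65% of the 35116 windows of this length held. The other 5 motifs were in 4.35% to 12.1% of the windows, and none of the 6 was in the windows shown for *GNA14* or *RGS6*. Of the downstream *RGS6* windows, 1 held TATAAA and another held AGGTGT. *CHRM2* had AGGTGT in 1 of its 3 windows and AGGTCA in another, and *ADRB1* had none of the 6. The GENCODE start of *GNAO1*, 56191347, lies inside its window and within the TGACGTCA match, so the annotations place the start differently. By GENCODE the match is therefore at the start and not 148 bases before it. These matches describe letters in a window, and binding there was not measured.

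In cardiomyocyte-like cells with PD173074, *GNAO1*, *GNA14* and *RGS6* stood 3.29, 6.15 and 4.23 times as high as in those without it, and *PTGER3* stood lower, at 0.192 times the level without it. *CHRM2* was 1.64 times as high, and *ADRB1* was under 10 CPM in each group. The call rule asked for 10 CPM or more in whichever group was higher and for an exact 95% counting interval entirely beyond 2-fold. By that rule 3 of the 6 were higher and 1 was lower, while 4.49% of 10584 genes were called, 2.58% higher and 1.91% lower. Since the genes were chosen on these same values, nothing is read from that count. Counting intervals cover counting error in 1 sample and not variation between cultures.

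*CHRM2* in cardiomyocyte-like cells had 913, 904 and 908 CPM in the runs with PD173074, against 554, 560, 526, 554 and 558 CPM in the runs without it and 411, 412 and 411 CPM in those of the 2D culture. The runs of a group repeat 1 sample, so their closeness does not measure variation between cultures. Of the runs without PD173074, the one with the fewest UMIs was the lowest. The means were 908 CPM (95% interval 896 to 921) with PD173074, 553 CPM (542 to 564) without it and 411 CPM (405 to 418) in 2D culture. On the log2 scale the difference was 0.72 (0.68 to 0.75) with PD173074 over without it, which stayed under 2-fold. It was 0.43 (0.39 to 0.46) without PD173074 over 2D culture and 1.14 (1.11 to 1.17) with PD173074 over 2D culture, the last being beyond 2-fold. *CHRM2* had the order with PD173074, without it, 2D culture, as smaller steps than *GNAO1* and *RGS6* had.

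*ADRB1* had 1.68, 1.98 and 2.06 CPM in the runs with PD173074, against 0.833, 1.06, 0.779, 0.933 and 0.751 CPM in those without it and 0.718, 0.768 and 0.845 CPM in those of the 2D culture. A run held on average 44.3 *ADRB1* UMIs with PD173074, 15.8 without it and 27.3 in 2D culture, all under the 10 CPM floor. The intervals were 1.39 to 2.55 CPM with PD173074, 0.502 to 1.44 CPM without it and 0.513 to 1.13 CPM in 2D culture, so those without PD173074 and of the 2D culture overlapped. The log2 difference was 1.11 (0.25 to 2.04) with PD173074 over without it and 0.18 (-0.81 to 1.13) without it over 2D culture. A difference of *ADRB1* between cardioids without PD173074 and the 2D culture was not detectable at this depth.

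*PTGER3* ran the other way. It had 19.4, 20.1 and 18.9 CPM in the runs with PD173074, against 103, 104, 99.3, 99.1 and 101 CPM in those without it and 32.4, 31.6 and 33.1 CPM in those of the 2D culture. The runs repeat 1 sample per group, so the gap between them is not a measure of variation between cultures. The means were 19.5 CPM (17.7 to 21.3) with PD173074, 101 CPM (96.9 to 106) without it and 32.4 CPM (30.5 to 34.3) in 2D culture. The log2 difference was -2.38 (-2.53 to -2.23) with PD173074 over without it and 1.65 (1.54 to 1.76) without it over 2D culture. With PD173074 over 2D culture it was -0.73 (-0.89 to -0.58), not beyond 2-fold.

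Of the G protein genes, *GNAO1* had 53.0, 52.2 and 52.3 CPM in the runs with PD173074, against 15.3, 15.9, 16.0, 16.2 and 16.5 CPM in those without it and 3.15, 3.07 and 2.74 CPM in those of the 2D culture. The runs of a group repeat the same sample, so gaps between groups of runs do not measure variation between cultures. The *GNAO1* runs did not overlap between groups. The log2 difference was 1.72 (1.53 to 1.91) with PD173074 over without it, 2.42 (2.09 to 2.75) without it over 2D culture and 4.13 (3.85 to 4.44) with it over 2D culture. *GNA14* had 11.8, 12.2 and 11.6 CPM in the runs with PD173074, against 2.03, 1.82, 2.14, 1.87 and 1.90 CPM in those without it and 0.387, 0.341 and 0.350 CPM in those of the 2D culture. Its level was above the floor with PD173074 and below it in the other groups. The log2 difference was 2.62 (2.11 to 3.17) with PD173074 over without it and 5.05 (4.24 to 5.99) with it over 2D culture. Without it over 2D culture the value was 2.43, with both groups under the 10 CPM floor.

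*RGS6* had 377, 375 and 387 CPM in the runs with PD173074, against 88.7, 90.4, 91.5, 90.9 and 88.1 CPM in those without it and 18.1, 17.8 and 17.3 CPM in those of the 2D culture. Its runs, too, repeat 1 sample per group. The log2 difference was 2.08 (2.00 to 2.16) with PD173074 over without it, 2.34 (2.20 to 2.47) without it over 2D culture and 4.42 (4.30 to 4.54) with it over 2D culture. Cardioids without PD173074 over 2D culture had 3 of the 6 genes called higher, *GNAO1*, *RGS6* and *PTGER3*, beside 1.14% of 10416 genes called, 1.01% higher and 0.134% lower. With PD173074 over 2D culture 4 were called higher, *GNAO1*, *GNA14*, *RGS6* and *CHRM2*, beside 7.66% of 10659 genes, 4.93% higher and 2.73% lower. The 3 comparisons share samples and are not independent of each other.

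**Figure D1:**
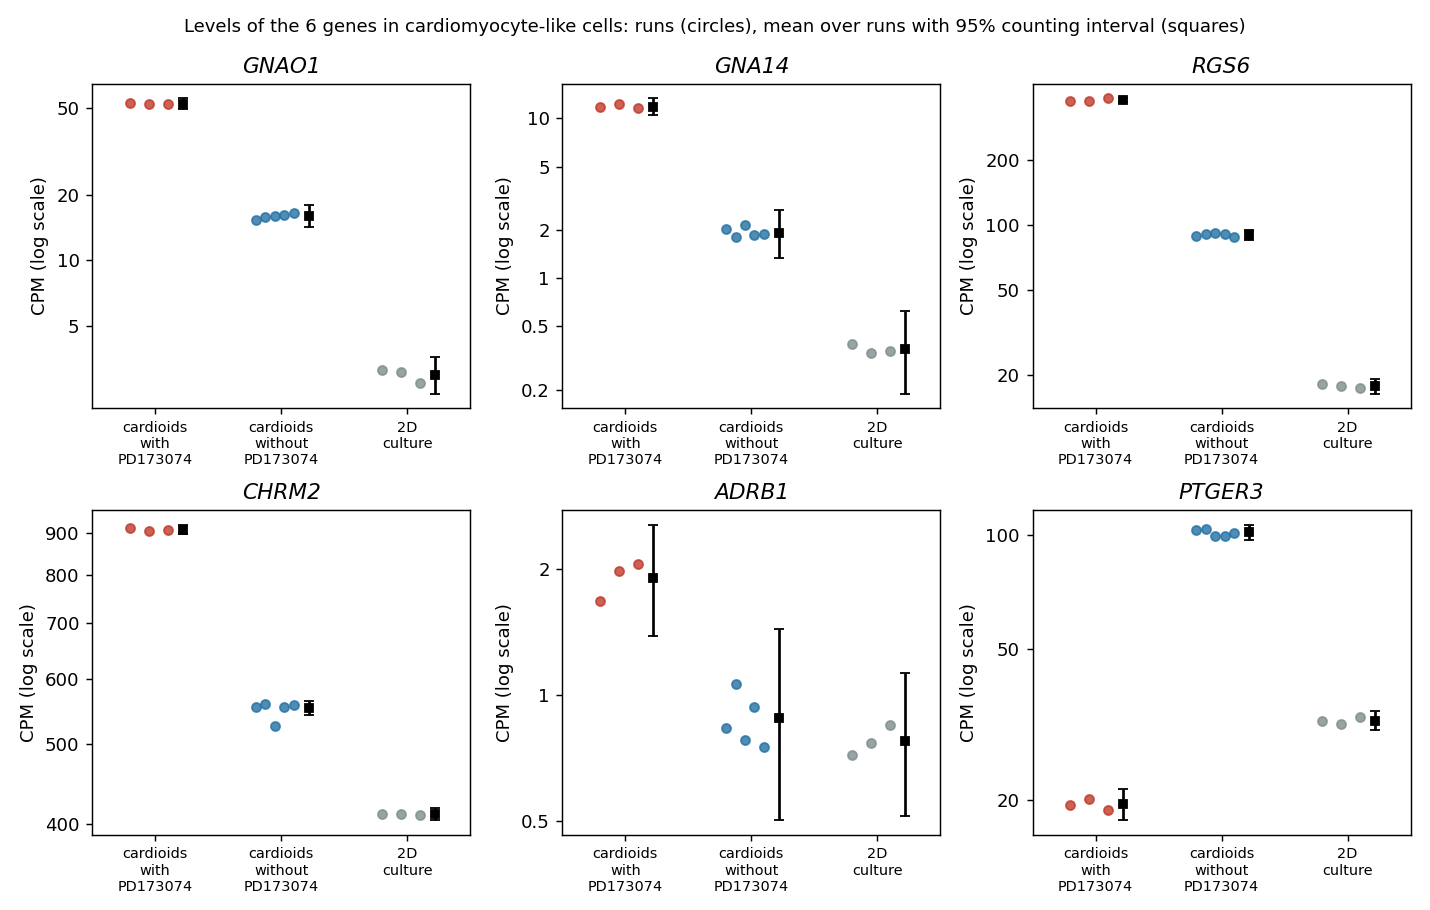
Levels of the 6 genes in cardiomyocyte-like cells in CPM (log axis) by group, with circles for runs and squares for the mean over runs with its exact 95% counting interval. *GNAO1*, *GNA14* and *RGS6* step down from cardioids with PD173074 to cardioids without it to the 2D culture, while *PTGER3* is highest without PD173074.

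Over all filtered cells, with PD173074 over without it, the log2 difference was 1.41 for *GNAO1*, 2.65 for *GNA14*, 1.74 for *RGS6*, 0.48 for *CHRM2* and -2.53 for *PTGER3*. The same 3 were called higher and *PTGER3* lower, beside 5.04% of 10807 genes called, 3.20% higher and 1.84% lower. Without PD173074 over 2D culture the same 3 as in cardiomyocyte-like cells were higher over all cells, *GNAO1* by 2.23, *RGS6* by 2.42 and *PTGER3* by 1.59, beside 1.86% called, 1.46% higher and 0.398% lower. With PD173074 over 2D culture *GNAO1* (3.64), *GNA14* (5.97) and *RGS6* (4.16) were higher over all cells and *CHRM2* (0.95) was not called, beside 8.51% called, 5.93% higher and 2.58% lower. *GNA14* had 37.4 CPM over all cells with PD173074, 5.97 without it and 0.596 in 2D culture, against 11.9 CPM with PD173074, 1.93 without it and 0.360 in 2D culture in cardiomyocyte-like cells. Among clusters with at least 50 cells of a sample it was highest in an epithelial-like one led by *SFRP2* and *GABRP*, with 152 CPM with PD173074 and 125 CPM without it. That cluster held 533 cells with PD173074, 87 without it and 0 of the 2D culture.

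The 3 groups filled different cardiomyocyte-like clusters, which were made from these cells with *GNAO1*, *GNA14*, *RGS6* and *PTGER3* among the genes used. Clusters 3 (led by AC139718.2 and *NPPA*), 4 (led by *TFPI2* and *CDH18*), 7 (led by *FGF12*) and 11 (led by *ADARB2* and *SHOX2*) held 35.0%, 26.3%, 19.0% and 12.7% of the cardiomyocyte-like cells with PD173074. Those without it were 43.6% in cluster 2, which *PTGER3* itself leads, and 11.7% in cluster 1. Those of the 2D culture were 43.6% in cluster 0 and 37.2% in cluster 1. Of the fixed markers in these cells, those of atria summed to 9103 CPM with PD173074, 3038 without it and 1929 in 2D culture. Those of the ventricle summed to 48.2 CPM with PD173074, 382 without it and 560 in 2D culture. Those of the sinus node summed to 775 CPM with PD173074, 542 without it and 326 in 2D culture. The atrial, ventricular and sinus node lists were detected in full in every group. Neuron markers summed to 96.3 CPM with PD173074, 45.0 without it and 45.9 in 2D culture. Of these 8 markers 7 were detected with PD173074, 7 without it and 6 in 2D culture. Smooth muscle markers summed to 3100 CPM with PD173074, 1505 without it and 1525 in 2D culture. The part of these marker levels in the differences of the 6 genes was not tested.

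By cluster, as the mean over the samples with at least 50 cells in it, *CHRM2* had 1513 CPM in cluster 11, then 944 in cluster 4 and 845 in cluster 7, down to 236 in cluster 0. The ranges of clusters 11 and 4 did not overlap, while those of most neighbours in this order did, so that their order is not resolved. *RGS6* was also highest in cluster 11, at 820 CPM, then 461 in cluster 7 and 272 in cluster 3, with no overlap between these neighbours. It had 6.51 CPM in cluster 0, so that its highest cardiomyocyte-like cluster was 126 times its lowest. *GNAO1* was highest in cluster 11 at 72.3 CPM, then 64.7 in cluster 3 and 53.6 in cluster 7, with overlapping ranges. *ADRB1* had 6.95 CPM in cluster 11 and at most 1.05 CPM in the other cardiomyocyte-like clusters, and *GNA14* was also highest there among these clusters. *PTGER3* had 156 CPM in cluster 2, 52.8 in cluster 8 and 47.9 in cluster 4, and 5.16 in cluster 7. These are descriptions of clusters that the genes helped to define, except that *CHRM2* and *ADRB1* were not among the genes clustered on.

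**Figure D2:**
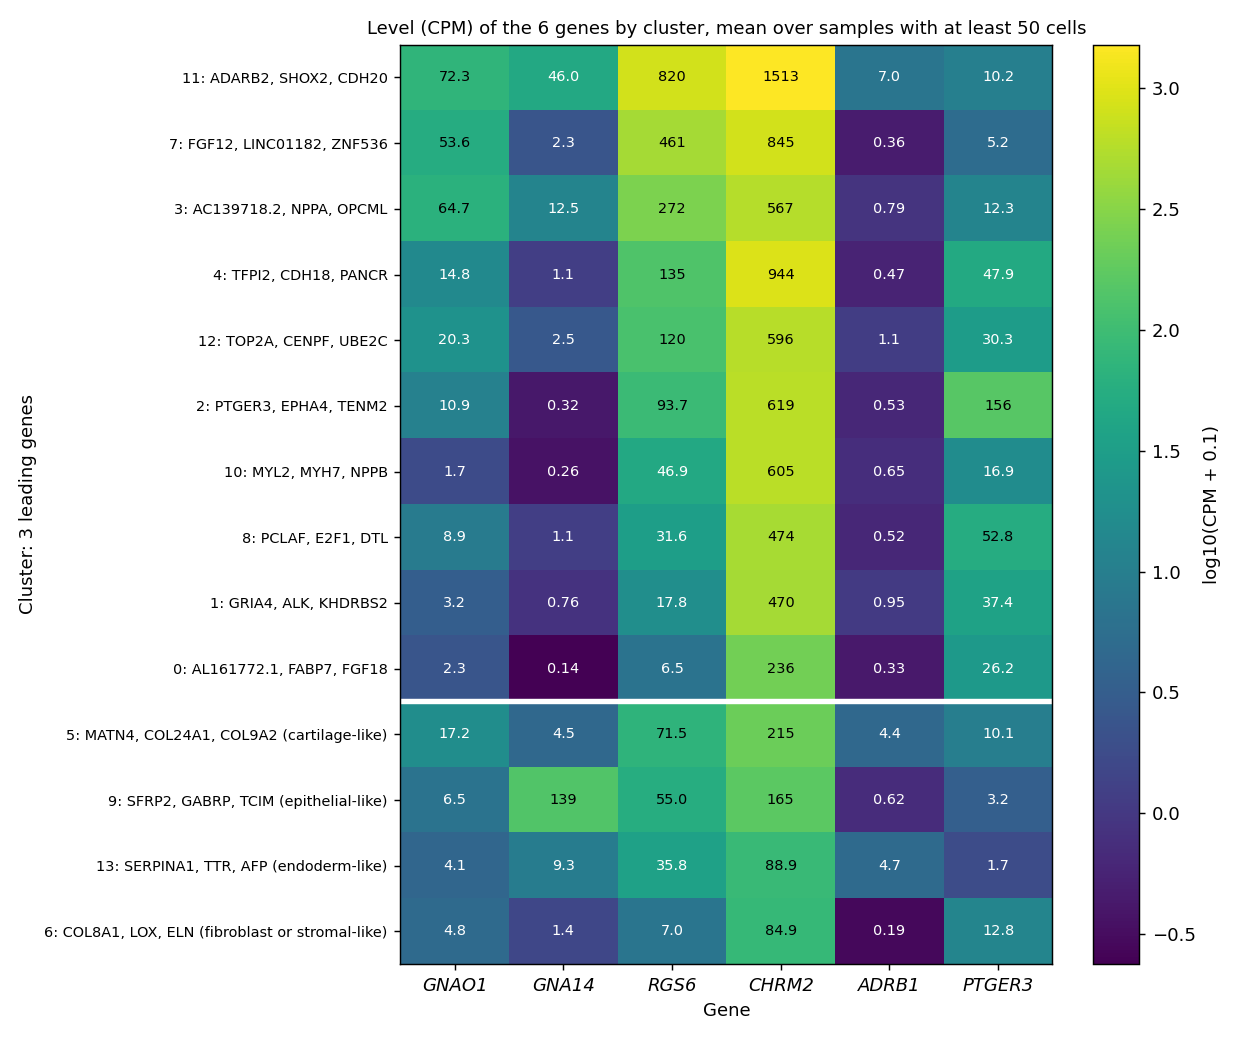
Level of each gene (CPM, log scale) in each cluster, as the mean over samples with at least 50 cells. *CHRM2*, *RGS6* and *GNAO1* are highest in cluster 11 and *PTGER3* in cluster 2, while *GNA14* is highest in epithelial-like cluster 9.

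Cluster 11 alone had 431 cells with PD173074 and 75 without it. Cells without PD173074 made up 14.8% of cluster 11, 14.6% of cluster 3, 14.5% of cluster 7 and 14.0% of epithelial-like cluster 9. They made up 27.0% of cluster 4 and 29.1% of cluster 12. Why the shares in clusters 11, 3, 7 and 9 lay so close together was not tested. In cluster 11 *CHRM2* had 1578 CPM with PD173074 and 1447 without it, and *RGS6* had 816 CPM with PD173074 and 824 without it. *GNAO1* had 82.6 CPM with PD173074 and 62.0 without it, and *GNA14* had 39.5 CPM with PD173074 and 52.6 without it. The counting intervals of the cardioid samples overlapped for each of these 4 genes in this cluster, while they did not over the class. Of all genes tested in cluster 11, 0.038% were called beyond 2-fold, against 4.49% over the class. The overlap is therefore not read as particular to these 4 genes. *MYH11* and *BMP4* are among this cluster's 10 leading genes, and *MYH11* is a smooth muscle marker. *PTGER3* had 9.63 CPM with PD173074 and 10.8 without it. With this cluster left out, a choice made after seeing the data, *GNA14* was under 10 CPM in each group and no longer called, at a log2 difference of 2.81 with PD173074 over without it. *CHRM2* with PD173074 over 2D culture was then 0.97 and no longer called.

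Within single clusters shared by both cardioid samples (11, 7, 3, 4 and 12), the log2 difference with PD173074 over without it was smaller in each cluster than over the whole class for *GNAO1*, *RGS6* and *CHRM2*. *GNAO1* differed by 0.41, -0.17, 0.40, 1.41 and 0.86 in those clusters, against 1.72 over the class. *RGS6* differed by -0.01, 0.16, 0.55, 0.88 and 1.62, against 2.08. *CHRM2* differed by 0.13, 0.12, 0.17, 0.23 and 0.61, against 0.72. In cluster 12, led by the cell division gene *TOP2A*, *RGS6* had 265 CPM with PD173074 and 86.1 without it, and *PTGER3* had 6.58 CPM with PD173074 and 58.0 without it. *PTGER3* differed by -0.70 in cluster 4, where it had 43.3 CPM with PD173074 and 70.3 without it. The clusters shared by the cardioids leave out cluster 2, which held 43.6% of the cardiomyocyte-like cells without PD173074. With the shared clusters weighted equally, a choice made after seeing the data, the differences were 0.39 for *GNAO1*, 0.060 for *GNA14* and 0.32 for *RGS6*, and none of the 3 was called higher. *CHRM2* was then at 0.23 and *PTGER3* at -1.06, against -2.38 over the class, and *PTGER3* was called lower by its value alone. With intervals, *PTGER3* was called lower in 1 of the 4 single clusters where it reached 10 CPM, cluster 12, beside 1.455% of all genes called there. Without PD173074 over 2D culture the equally weighted difference was 1.08 for *GNAO1*, beyond 2-fold by its value alone, against 2.42 over the class. With intervals, *GNAO1* was called higher in 0 of the 4 single clusters where it reached 10 CPM in that comparison. Of all genes, 0.195% to 0.434% were called in those clusters, so nothing is read from that 0. The equally weighted differences were 0.29 for *RGS6* and 0.62 for *PTGER3*, no longer called, and -0.069 for *CHRM2*, turned round. With PD173074 over 2D culture only clusters 4 and 12 had at least 50 cells of both samples. They held 1.40% and 2.24% of the cardiomyocyte-like cells of the 2D culture, so these values do not describe the whole class. The equally weighted differences were 1.88 for *GNAO1* and 1.85 for *RGS6*, beyond 2-fold by value alone, against 4.13 and 4.42 over the class. With intervals, both genes were called higher in cluster 12 and neither in cluster 4, beside 3.36% of all genes called in cluster 12 and 0.666% in cluster 4. *GNA14* was at 3.85, on 0 UMIs of the 2D culture in cluster 4 and 0.667 in cluster 12, and *CHRM2* at 0.36, both no longer called.

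**Figure D3:**
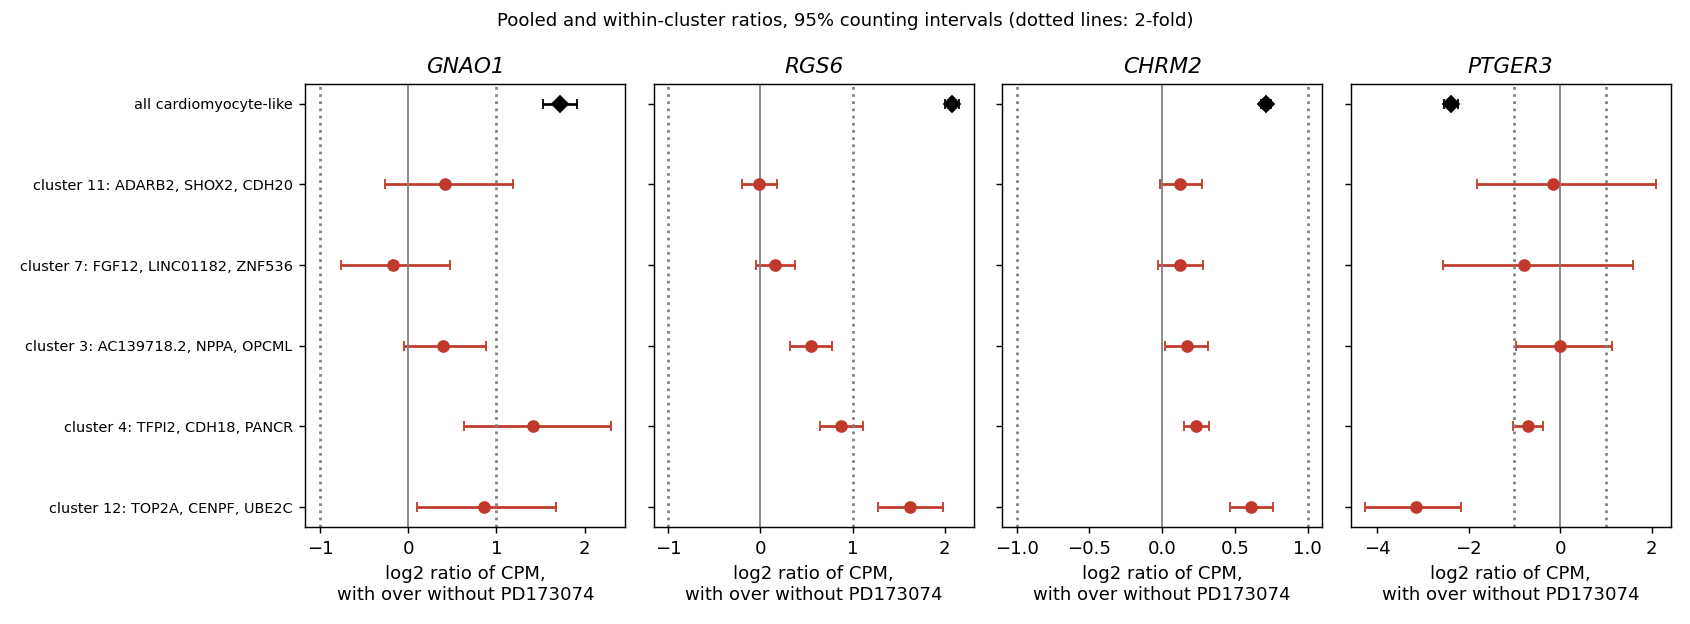
Log2 difference with PD173074 over without it for *GNAO1*, *RGS6*, *CHRM2* and *PTGER3*, in all cardiomyocyte-like cells and within the clusters with at least 50 cells of both samples. Bars are exact 95% counting intervals. Within-cluster differences lie nearer 0 than the class-wide ones, except for *PTGER3* in cluster 12.

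The share of a gene's UMIs in a cluster was set beside the share of cells there. Of the cardiomyocyte-like *PTGER3* UMIs, 56.7% with PD173074 were in cluster 4, which held 26.3% of those cells, and 77.4% without it were in cluster 2, which held 43.6%. *GNA14* with PD173074 had 45.0% of its cardiomyocyte-like UMIs in cluster 11 and 40.5% in cluster 3, which held 12.7% and 35.0% of the cells. *ADRB1* with PD173074 had 55.6% in cluster 11. The largest *CHRM2* shares of the cardioids lay near those of the cells, with 27.5% in cluster 4 with PD173074 beside 26.3%, and 45.1% in cluster 2 without it beside 43.6%. Some other *CHRM2* shares did not. With PD173074 it had 23.5% in cluster 11 and 19.6% in cluster 3, beside 12.7% and 35.0% of the cells. In 2D culture it had 51.8% in cluster 1 beside 37.2% of the cells, and 20.7% in cluster 0 beside 43.6%.

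To compare shares of cells at 1 depth, 2000 UMIs were drawn from each cell, which left out 281 cardiomyocyte-like cells with PD173074, 173 without it and 613 of the 2D culture. *CHRM2* was seen in 62.9% of cells with PD173074 (61.2 to 64.6), 51.3% without it (49.5 to 53.1) and 43.0% of the 2D culture (41.8 to 44.2). Before thinning the shares were 82.8% with PD173074, 73.2% without it and 62.2% of the 2D culture. In epithelial-like cells with PD173074 *CHRM2* was seen in 14.4% of cells, at a median of 10050 UMIs against 6026 in the cardiomyocyte-like cells. Stromal-like cells of the 2D culture gave 14.5%, so the cardiomyocyte-like shares stood above these. *RGS6* was seen in 38.4% of cells with PD173074 (36.7 to 40.2), 13.4% without it (12.2 to 14.7) and 2.87% of the 2D culture (2.48 to 3.30), against 3.61% in the epithelial-like cells with PD173074. Its 2D culture share was above the 1.16% of stromal-like cells of that culture. Before thinning, *RGS6* shares were 61.3% with PD173074, 25.6% without it and 6.26% of the 2D culture.

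*GNAO1* was seen in 9.23% of thinned cells with PD173074 (8.23 to 10.3), 2.96% without it (2.38 to 3.63) and 0.559% of the 2D culture (0.394 to 0.769). Unthinned, they were 24.0% with PD173074, 7.66% without it and 1.48% of the 2D culture. The 2D culture share of *GNAO1* was below the 0.870% of its stromal-like cells, so it did not stand above that class. By level, *GNAO1* in 2D culture had 2.99 CPM (2.45 to 3.62) in cardiomyocyte-like and 2.62 CPM (1.63 to 3.99) in stromal-like cells, with overlapping intervals. Whether either level is background was not tested. Without PD173074 the epithelial-like cells gave 1.16% and the 65 stromal-like cells 3.08% (0.375 to 10.7). By level, *GNAO1* without PD173074 had 16.0 CPM (14.2 to 17.9) in cardiomyocyte-like cells, against 4.30 CPM (0.750 to 13.5) in epithelial-like, 6.99 CPM (3.02 to 13.8) in stromal-like and 17.4 CPM (9.74 to 28.7) in cartilage-like cells. Within the class it differed between clusters, with 62.0 CPM in cluster 11 and 3.01 CPM in cluster 0. *PTGER3* was seen in 2.96% of cells with PD173074, 15.7% without it (14.4 to 17.1) and 5.47% of the 2D culture (4.93 to 6.04), where stromal-like cells gave 2.32%. Epithelial-like cells with PD173074 gave 0.570% for *PTGER3* and cartilage-like cells 2.02%. Before thinning the *PTGER3* shares were 8.82% with PD173074, 32.8% without it and 12.3% of the 2D culture. *GNA14* was seen in 2.19% of cardiomyocyte-like cells with PD173074, 0.370% without it and 0.0604% of the 2D culture, and in 19.8% of epithelial-like cells with PD173074. *ADRB1* was seen in 0.289% of cardiomyocyte-like cells with PD173074, 0.269% without it and 0.121% of the 2D culture. It was seen in 0 of 526 epithelial-like cells with PD173074, which allows a share of up to 0.570%, a bound set by the number of those cells.

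**Figure D4:**
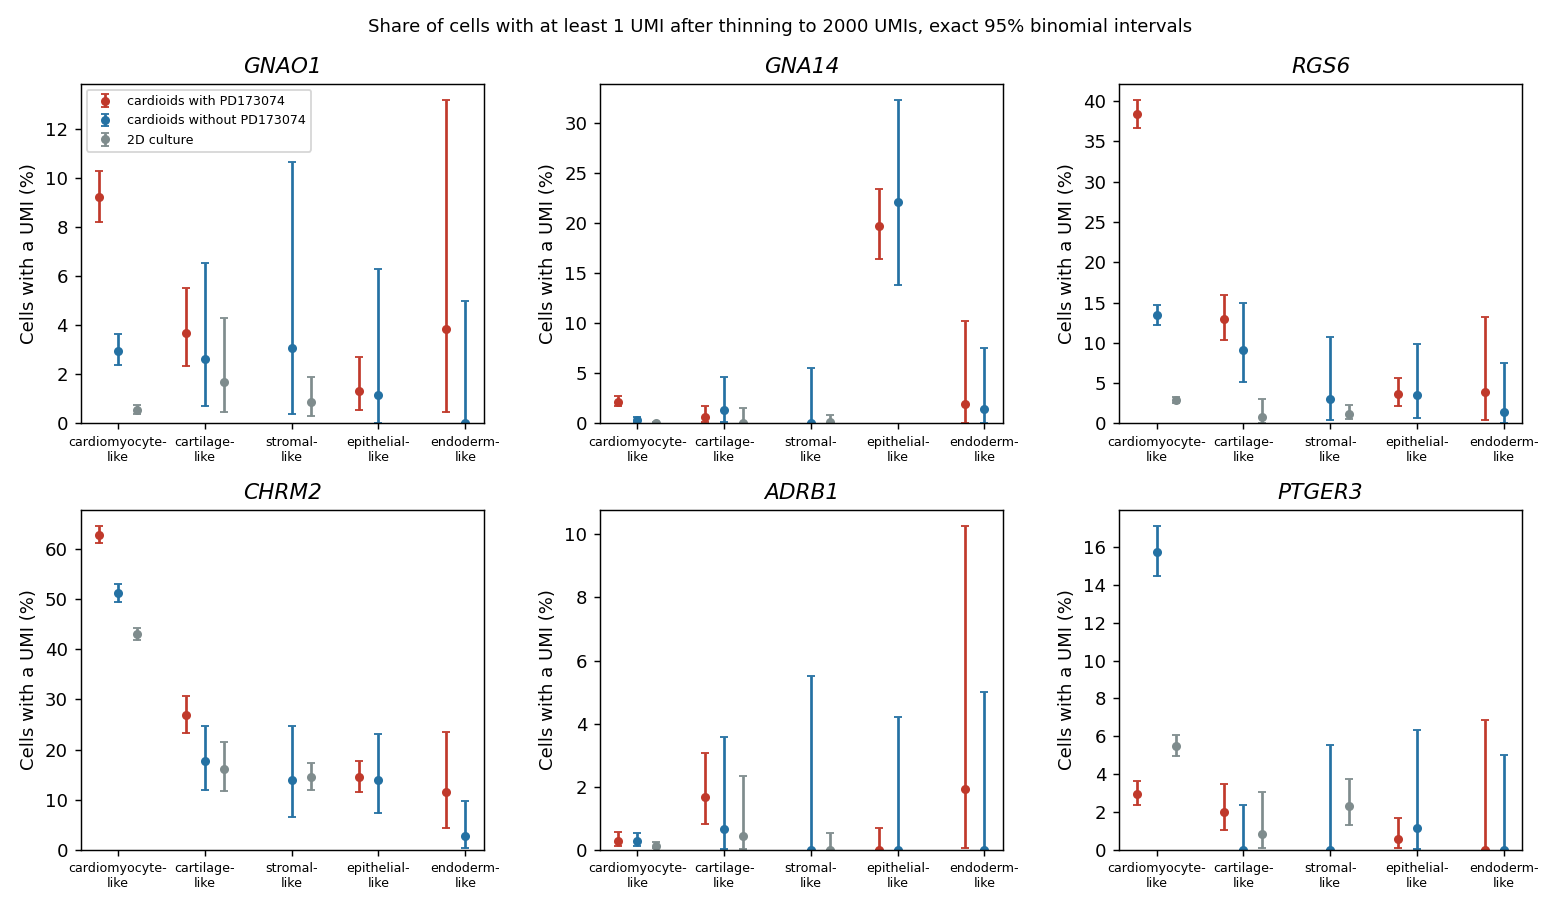
Share of cells with at least 1 UMI of each gene after thinning to 2000 UMIs per cell, by cell class and group, with exact 95% binomial intervals. *GNA14* is seen most in epithelial-like cells and the *CHRM2* and *RGS6* shares are highest in cardiomyocyte-like cells.

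Levels of the 6 genes outside the class were set against those of the cardiomyocyte markers, measured in the same cells. In cartilage-like cells with PD173074 the 12 cardiomyocyte markers had a median of 12.5% of their cardiomyocyte-like level (7.91 to 20.4). There *CHRM2* stood at 38.1%, *RGS6* at 36.9%, *GNAO1* at 47.5%, *PTGER3* at 57.8% and *GNA14* at 68.2% of theirs, and *ADRB1* at 463%. All 6 genes were above the range of the cardiomyocyte markers in these cells. In epithelial-like cells with PD173074 the markers had 9.65% (6.43 to 12.8), *RGS6* 10.9%, *CHRM2* 21.3%, *GNAO1* 16.5%, *PTGER3* 21.2% and *GNA14* 1280%. *RGS6* lay within the range of the markers there. In stromal-like cells of the 2D culture the markers had 20.8% (16.8 to 24.6), *CHRM2* 25.2%, *RGS6* 32.7%, *PTGER3* 49.5%, *GNAO1* 87.6% and *GNA14* 364%. Without PD173074 the markers in cartilage-like cells had 9.42% (7.63 to 13.3), *PTGER3* 8.69%, *CHRM2* 32.9%, *RGS6* 78.9%, *GNAO1* 109% and *GNA14* 144%. In epithelial-like cells without PD173074 the markers had 7.11% (0.82 to 16), *PTGER3* 2.28%, *CHRM2* 24.8%, *GNAO1* 26.9% and *RGS6* 76.2%. *PTGER3* lay within the marker range in both of these classes without PD173074.

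Across 30 pairs of cluster and sample with at least 50 cells, the genes whose log2(CPM + 1) went most closely with *GNAO1* were *PRDM6*, *NR2F2-AS1* and *NR2F1* (Pearson r of 0.90, 0.899 and 0.866). With *RGS6* they were *GRM7*, *CNTN4* and *NCOA1* (0.907, 0.90 and 0.887), and with *CHRM2* *DPF3*, *PPFIA2* and *RNF150* (0.957, 0.936 and 0.929). With *GNA14* they were *PRLR*, the prolactin receptor, *FAM49A* and *GNA14-AS1* (0.846, 0.821 and 0.816), and with *PTGER3* *BMP2*, *NPY1R* and *COL13A1* (0.885, 0.883 and 0.877). *ADRB1* did not reach 10 CPM in any pair and was left out of this search. Among the 6 genes, over the 21 cardiomyocyte-like pairs, *GNAO1* and *RGS6* had an r of 0.909, *RGS6* and *CHRM2* 0.880, and *PTGER3* -0.296 to -0.547 with these 3 and *GNA14*. *ADRB1*, on few UMIs, had -0.279 with *PTGER3*. These pairs share libraries and depths, so the values describe likeness and carry no test.

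Direct partners of the 6 genes in cardiomyocyte-like cells differed less than *GNAO1* and *RGS6* did. *KCNJ3*, a subunit of the channel that the M2 receptor opens, had 100.02 CPM with PD173074, 98.5 without it and 83.9 in 2D culture. *KCNJ5*, its partner subunit, had 24.0 CPM with PD173074, 23.6 without it and 25.0 in 2D culture. *GNB5*, the beta subunit that binds RGS6, had 36.1 CPM with PD173074, 27.6 without it and 29.9 in 2D culture. *GNAI2*, a Gi alpha subunit, had 124 CPM with PD173074 and 168 without it. *GNAS*, the Gs alpha subunit, had 1156 CPM with PD173074 and 1395 without it, and *GNAQ*, a Gq alpha subunit, had 141 CPM with PD173074 and 107 without it. None of these partners was beyond 2-fold in this comparison.

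Of the 162 other genes in 18 lists of receptors, G proteins, regulators and effectors, 76 reached 10 CPM in cardiomyocyte-like cells with or without PD173074. With PD173074 over without it 6 were called higher and 2 lower, beside the 4.49% of all genes called, with a median log2 difference of 0.08, against -0.07 over all genes tested. *PDE1A* and *PDE3A*, which hydrolyse cyclic nucleotides, were higher, by 2.56 (94.5 CPM with PD173074 and 16.0 without it) and 1.38 (98.8 CPM with PD173074 and 37.8 without it). Among the others called higher, *CACNA1C* and *CACNA1D*, L-type calcium channels, differed by 1.25 and 1.10, and *ATP2A2*, which pumps calcium into the sarcoplasmic reticulum, by 1.23. *PDE10A* differed by -1.62 (21.9 CPM with PD173074 and 67.5 without it) and *RGS5*, another regulator of G protein signalling, by -1.15 (50.3 CPM with PD173074 and 112 without it).

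Of the 9 adrenergic receptor genes, none reached 10 CPM in either cardioid sample, and *PTGER3* was the only one of 9 prostanoid receptor genes that did. Of the 22 RGS proteins and anchors, 7 reached the floor, and *RGS6* was higher while *RGS5* was lower. Without PD173074 over 2D culture 75 of the 162 reached the floor, 2 were higher (*PDE1A* by 2.43 and *CACNA1D* by 1.15) and 1 was lower (*RGS4* by -1.39), beside 1.01% of all genes higher and 0.134% lower. With PD173074 over 2D culture 78 reached it, 9 were higher and 4 lower, beside 4.93% of all genes higher and 2.73% lower. *PDE1A* was 31.9 times as high there. *CACNA1D* differed by 2.25 on the log2 scale and *CHRM3*, the M3 muscarinic receptor, by 1.76 (12.2 CPM with PD173074 and 3.62 in 2D culture). *RGS4* differed by -2.94 and *PDE10A* by -2.18.

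**Figure D5:**
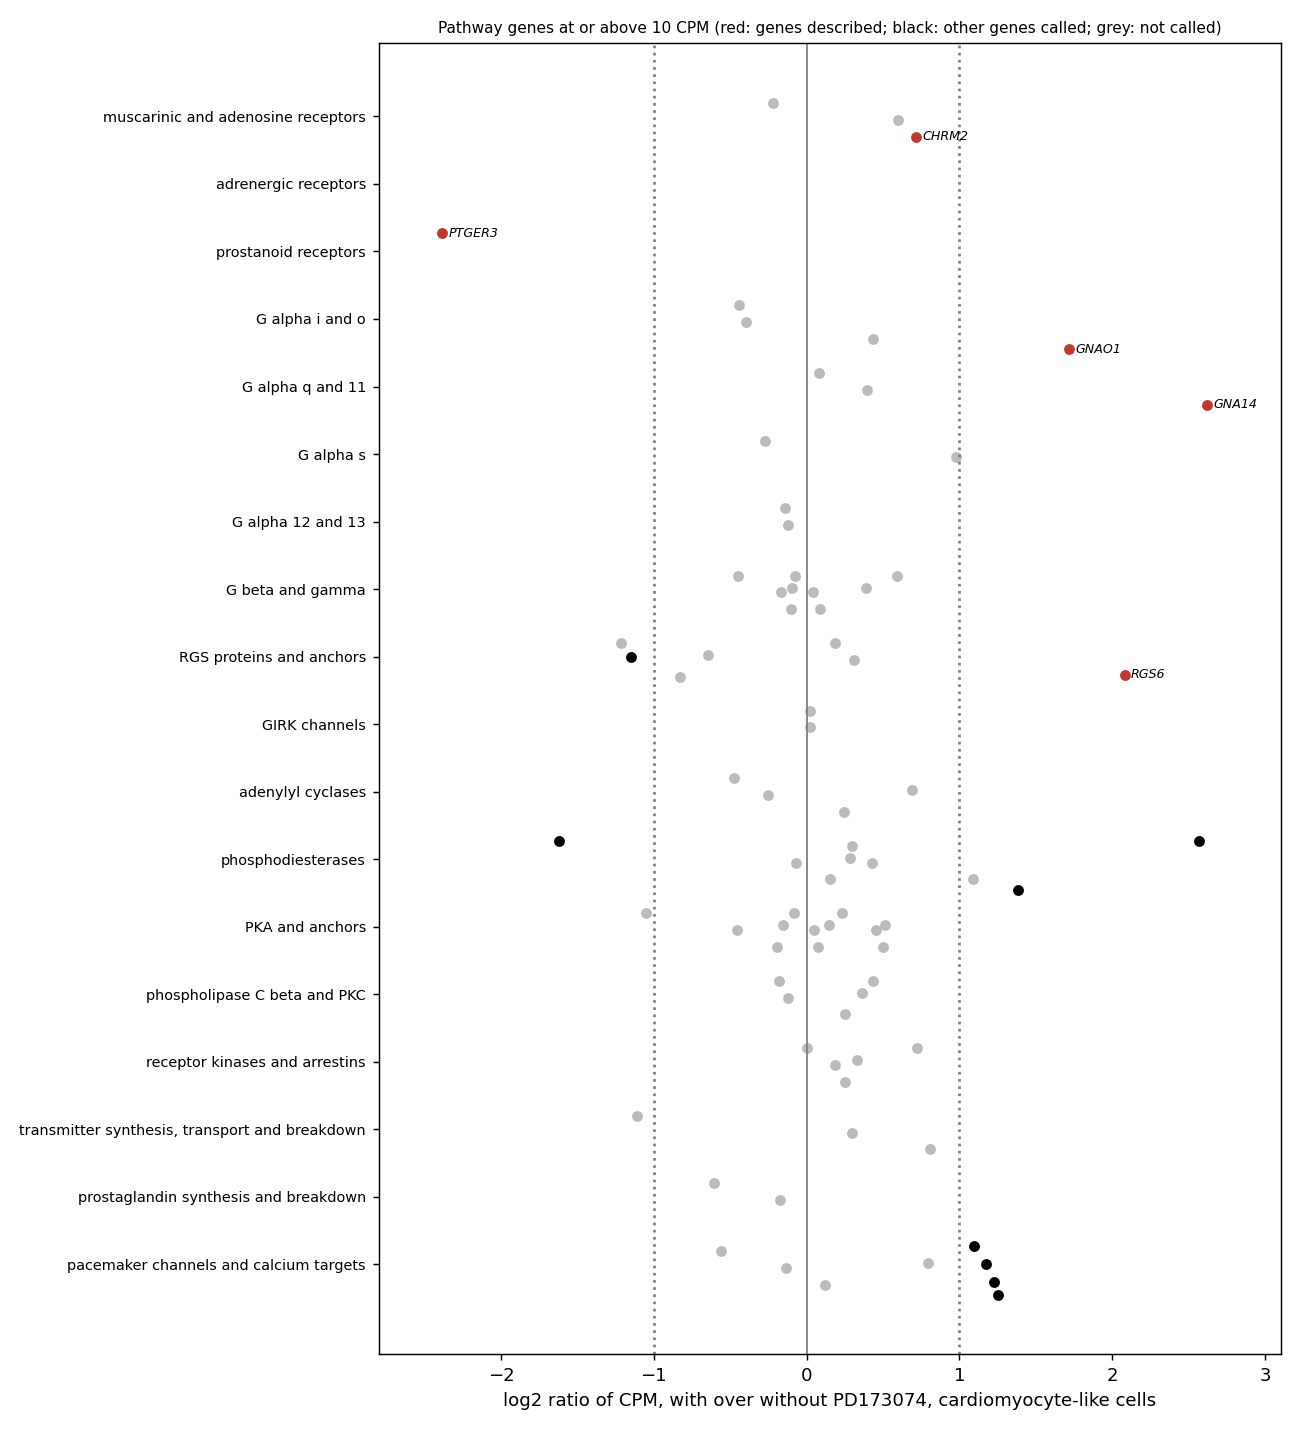
Log2 difference with PD173074 over without it in cardiomyocyte-like cells for the genes of each signalling list at 10 CPM or more. Red marks 5 of the 6 genes described (*ADRB1* was under the floor), black other genes beyond the call rule (not labelled) and grey the rest, and most of the other genes lie between -1 and 1.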

How the data were processed

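The 11 single-cell libraries were of H9 cells collected on day 42.5. For each library the authors deposited a matrix of raw UMI counts, genes by barcodes. The submitters' processing notes name Cell Ranger 7.0.0 and the hg38 build. Not given in the sources used here are the annotation release, the intron setting and the 10x chemistry of each library. Cells were dissociated with a kit for cardiomyocytes, per the labels' protocols.

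Groups came from the treatment label. Runs of a group shared nearly all barcodes, with a correlation of log10 UMIs per barcode of at least 0.998, so values are means over the runs of 1 sample, and no test was made. Barcodes were kept with 1000 UMIs, 500 genes and no more than 30% mitochondrial UMIs. Scrublet marked at most 2 cells of a sample, was taken as not having worked, and no doublet was removed. Cells were scaled to 10000 UMIs and clustered on 2000 variable genes and 30 components with 15 neighbours (scanpy 1.11.5, leidenalg 0.10.2, resolution 0.6, seed 0). Clusters were called cardiomyocyte-like by their level of 12 fixed markers, and other classes from markers among their leading genes. CPM and log2 ratios were computed here from the deposited counts. Intervals are exact 95% Poisson intervals on mean counts or exact binomial ones for shares. The call rule was tested on simulated data with known folds.

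All 6 genes and their antisense genes were named, with genes of the lists past the rule (up to 3 per list and comparison), their direct partners and the 3 genes most like each. The genes and lists were chosen with earlier results of these data known. Alternatives left out each run or changed the scaling in 3 ways (TMM from edgeR 4.0.16), and used other floors and folds, other cell filters and cluster resolutions, and 3 added after seeing the data. Python 3.11.15, numpy 2.4.6, scipy 1.17.1, pandas 2.3.3 and R 4.3.3 were used. Some of the genes measured are not reported here.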

Additional observations from a re-analysis of the deposited data

Results flagged for a closer look

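*CHRM2* in cardiomyocyte-like cells had 526 CPM in run 3 of cardioids without PD173074, which lay far from the other 4 runs of that group, at 554 to 560 CPM. It was the only such value among the 6 groups of 5 runs looked at, where chance alone marks about 1 in 20 groups, and the runs are of 1 sample. That run also had the fewest UMIs of the group, at 12266166. Its counts over all genes also differed from those of the other 4 runs. The chi-square over its degrees of freedom, 1 for independent counting, was 7.365 to 8.04 against them and 0.646 to 0.737 among them. *CHRM2* with PD173074 over without it ranged over 0.71 to 0.72 on the log2 scale as runs were left out.

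*GNA14* had 143 CPM (109.5 to 184.1) in 24 endothelial-like cells, 16 with PD173074 and 8 without it, which were too few for the comparisons. *CHRM2* had 48.2 CPM and *RGS6* 19.8 CPM in the same cells.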

How the results depend on the processing

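No paired analysis was possible because the run numbers only name repeat runs of 1 sample in each group. Leaving out each run changed no call of the 6 genes: with PD173074 over without it, *GNAO1* ranged over 1.701 to 1.73 on the log2 scale, *GNA14* over 2.60 to 2.64, *RGS6* over 2.07 to 2.09, *CHRM2* over 0.71 to 0.72 and *PTGER3* over -2.405 to -2.36. The 3 other scalings moved the median of all genes by values between -0.0823 and 0.0719 on the log2 scale and changed no call of the 6 genes.

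With shared clusters weighted equally, a choice made after seeing the data, there is no counting interval, so calls rest on the value alone. Cells in clusters that are not shared are left out, such as those of cluster 2 in the comparison of the cardioids. With PD173074 over without it 0 of the 6 genes were then called higher (*GNAO1* 0.39, *GNA14* 0.060, *RGS6* 0.32). *CHRM2* was at 0.23, and *PTGER3* was called lower at -1.06. Without PD173074 over 2D culture 1 was called higher, *GNAO1* at 1.08, with *RGS6* at 0.29 and *PTGER3* at 0.62 no longer called and *CHRM2* turned round at -0.069. With PD173074 over 2D culture only clusters 4 and 12 were shared, and 2 genes were called higher, *GNAO1* at 1.88 and *RGS6* at 1.85. These clusters held 1.40% and 2.24% of the cardiomyocyte-like cells of the 2D culture. *GNA14* at 3.85 and *CHRM2* at 0.36 were no longer called, and *ADRB1* gave no value. Without the *SHOX2*-led cluster, also chosen after seeing the data, *GNA14* fell under the floor, at 2.81 with PD173074 over without it and at 4.39 with it over 2D culture. *CHRM2* was then 0.97 with PD173074 over 2D culture, not called, and 2 of the 6 genes were called higher. *CHRM2* in that comparison was also not called at resolution 1.0, at 1.02.

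At a floor of 20 CPM *GNA14* was not called at 2.62 with PD173074 over without it and at 5.05 with it over 2D culture, nor *GNAO1* at 2.42 without it over 2D culture, since their levels lie under that floor. With no floor, *GNA14* was called without PD173074 over 2D culture, at 2.43. Beyond 1.5-fold, *CHRM2* at 0.72 was called with PD173074 over without it.

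Over all genes, with PD173074 over without it, 273 were higher and 202 lower, against 446 and 381 with no floor, 564 and 491 beyond 1.5-fold and 15 and 45 with clusters weighted equally. Counts with clusters weighted equally, here and below, rest on values alone without intervals, so they are not under the same rule as the others. Without it over 2D culture 105 were higher and 14 lower, against 279 and 21 with no floor, 265 and 74 beyond 1.5-fold, 67 and 9 at 20 CPM, 159 and 18 at 5 CPM, 35 and 9 with clusters weighted equally, and 230 and 78 without cells in clusters mostly of another sample. With it over 2D culture 525 were higher and 291 lower, against 1114 and 554 with no floor and 914 and 691 beyond 1.5-fold, and 327 were higher with clusters weighted equally. The cause of these changes was not tested beyond what each choice does by its construction.

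Thinned to 1000 UMIs, the *CHRM2* shares were 48.4% with PD173074, 35.9% without it and 28.3% of 2D culture, and those of *RGS6* 25.3% with PD173074, 8.81% without it and 1.59% of 2D culture. Each group was 1 sample, and *ADRB1* and *GNA14* had low UMI counts.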

Other observations

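*ADRB1*, the beta-1 adrenergic receptor gene, was under 10 CPM in cardiomyocyte-like cells of each group. In cartilage-like cells it had 8.81 CPM with PD173074, 3.02 without it and 1.49 in 2D culture, and in endoderm-like cells 3.20 CPM with PD173074 and 6.26 without it, on few UMIs. It had 0.257 CPM in epithelial-like cells with PD173074, against 1.90 CPM in cardiomyocyte-like cells of that sample. At a finer clustering the cartilage-like cells split. In a *MATN4*-led cluster *ADRB1* had 13.5 CPM with PD173074 (7.51 to 22.4), 4.89 without it and 1.54 in 2D culture. In a stromal-like cluster led by *MSX1* and *TCF21*, *RGS6* had 160 CPM with PD173074 and 125 without it, and *CHRM2* had 387 CPM with PD173074 and 286 without it. The same genes in the *MATN4*-led cluster were at 55.9 CPM with PD173074 and 21.3 without it for *RGS6*, and at 157 CPM with PD173074 and 86.7 without it for *CHRM2*. The *SHOX2*-led cluster recurred at that clustering, with 504 cells with PD173074 and 82 without it.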
